A study of Homo sapiens with 16 samples.

Results

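The 10 genes described here are SIN3B, HAUS8, MYO9B, USE1, NR2F6, BABAM1, ABHD8, DDA1, GTPBP3 and SLC27A1, which follow each other in that order along chromosome 19. They were picked from 33121 gene entries because the stretch that holds them was higher in the second knockout of the study than in its control, so the values of that contrast chose the members. All 10 passed the filter on low counts, which 15569 entries passed. On RefSeq's GRCh38.p14 the stretch runs from the start of SIN3B at 16829398 to the end of SLC27A1 at 17506168, a span of 677 kb. RefSeq places 29 entries in it, of which 22 had an entry in the count table.

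Poly(A) RNA from HAP1, a near-haploid human cell line derived from the chronic myeloid leukaemia line KBM-7, was sequenced as paired-end reads. Each of the 4 groups had 4 libraries: cells with SLC30A10 deleted (genotype SLC30A10_delta), controls with that gene intact (SLC30A10+/+), cells with a second gene deleted, called the second knockout, and controls with that second gene intact, called the second control set. SLC30A10 encodes a manganese exporter of the cell surface. All 4 groups were HAP1 cells grown in the same medium, and the labels give no further treatment. Both control sets carried the same cell line identifier, and each knockout carried an identifier of its own, so each deletion was measured in 1 line. The labels do not state whether the 4 libraries of a group came from separate cultures, so p-values measure the spread between these libraries, which may be technical. No batch is given in the labels.

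Library totals lay between 16058856 and 16648151 counts, and 3 counts equalled 0.181 to 0.187 CPM, the count scaled to library size with edgeR's TMM method. SLC30A10 itself had 3 to 11 counts in its knockout and 6 to 9 in its control, too few to check the labels by its level. Of the genes that mark HAP1's origin, BCR had 317 to 399 counts and ABL1 202 to 336. ABL1 had 202 to 249 counts in the second knockout and 286 to 308 in its control. The blood cell markers PTPRC, SPI1, CD33, GATA1 and ITGAM had 0 to 3 counts in every library, CD3E had 0 counts throughout, and CD34 reached 9 counts.

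The members share a place on the chromosome and not a pathway. SIN3B is a scaffold of histone deacetylase complexes that repress transcription, and NR2F6 is an orphan nuclear receptor of the COUP-TF family. HAUS8 is a subunit of augmin, which starts new microtubules from the sides of existing ones in the mitotic spindle, and MYO9B is an unconventional myosin, a motor that moves on actin. BABAM1 holds together complexes that remove lysine-63-linked ubiquitin chains, and DDA1 sits on the DDB1 adaptor of the cullin 4 ubiquitin ligases. USE1 is a SNARE protein of transport from the Golgi back to the endoplasmic reticulum, GTPBP3 modifies mitochondrial transfer RNAs, SLC27A1 is a fatty acid transport protein, and ABHD8 belongs to the alpha/beta hydrolase fold family. RNA from neighbouring genes is often set by separate promoters, and a gain or loss of a chromosome segment alters the gene dose of all genes on it together.

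Per kilobase of exon, the members covered a wide range in the second control set. NR2F6 had 34.3 ± 1.00 CPM per kb (SD, n = 4) and BABAM1 31.1 ± 1.30. DDA1 followed at 10.9 ± 0.208, GTPBP3 at 10.2 ± 0.785, ABHD8 at 9.57 ± 0.607 and MYO9B at 9.48 ± 0.475 CPM per kb, and neighbours among these 4 did not differ beyond their SDs. SIN3B at 6.31 ± 0.260, HAUS8 at 5.12 ± 0.139, USE1 at 1.85 ± 0.213 and SLC27A1 at 1.42 ± 0.157 CPM per kb were each apart from their neighbours in the order. In the second knockout NR2F6 (60.7 ± 2.53 CPM per kb) and BABAM1 (57.8 ± 3.27) were no longer apart. HAUS8 at 8.97 ± 0.434 CPM per kb there stood above SIN3B at 6.89 ± 0.0853, the reverse of their order in the other 3 groups.

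In the second knockout, 9 of the 10 members had a higher level than in its control at an adjusted p under 0.05 (edgeR's quasi-likelihood test with Benjamini-Hochberg adjustment over all tested genes), where 6.67% of all tested genes did, and the libraries of the groups did not overlap for 10 of 10, where 7.6% of all tested genes were higher without overlap. Because this contrast chose the members, these values describe them and test nothing. The median log2 fold change of the members was 0.90, against -0.0024 over all tested genes. Their summed level was 884 ± 31.1 CPM in the second knockout and 484 ± 7.83 CPM in its control (SD, n = 4), a ratio of 1.82, and without SIN3B the ratio was 1.92. In RNA from bulk cultures, more cells with a high level and more RNA per cell cannot be told apart.

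**Figure D1:**
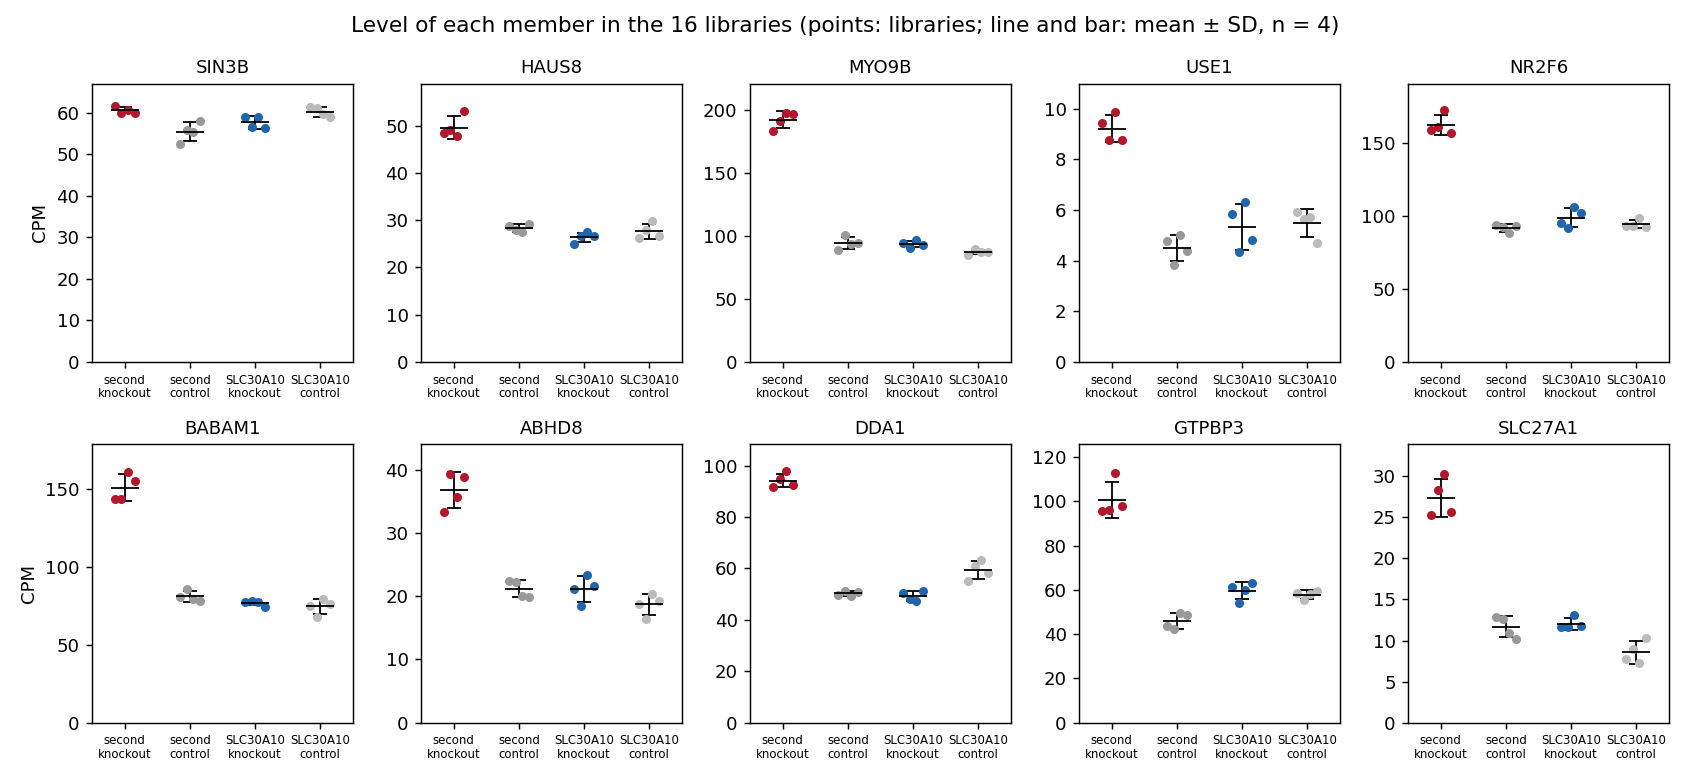
Level of each member in CPM (vertical axes, from 0) in each of the 16 libraries (points), by group, with the group mean and SD (line and bar, n = 4). In 9 panels the 4 libraries of the second knockout stand above the other 12, and in the SIN3B panel they lie at 59.9 to 61.5 CPM, among the SLC30A10 control libraries at 58.8 to 61.3 CPM.

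The nuclear regulators differed from each other. SIN3B had 61.5, 59.9, 60.6 and 60.0 CPM in the second knockout and 52.4, 55.9, 55.4 and 58.0 CPM in its control. The groups did not overlap, yet the log2 fold change was 0.13 ± 0.04 (SE), with a 95% interval of 0.04 to 0.22, and the adjusted p was 0.0508. SIN3B is thus the member that was not called. Its call depended on the settings: it passed in 5 of 20 alternatives, among them without library 4 of the second control set (0.15, edgeR adjusted p 0.0416), and its log2 value was 0.0074 against the control set of the other experiment. NR2F6 had 159, 161, 172 and 157 CPM in the second knockout and 93.9, 92.3, 88.0 and 93.3 CPM in its control, a log2 fold change of 0.82 ± 0.05. Every library of the second knockout lay far above every control library.

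HAUS8 and MYO9B, the members of the microtubule and actin machinery, lie head to head: HAUS8 is read on the minus strand and MYO9B on the plus strand, with 243 bases between their starts. HAUS8 had 48.4, 49.1, 47.9 and 53.2 CPM in the second knockout and 28.9, 27.9, 27.5 and 29.1 CPM in its control. MYO9B had 183, 191, 198 and 197 CPM against 89.0, 101, 93.5 and 94.2 CPM. Neither gene's groups overlapped. The log2 fold changes were 0.81 ± 0.05 for HAUS8 and 1.03 ± 0.04 for MYO9B, and their 95% intervals, 0.69 to 0.92 and 0.94 to 1.11, did not overlap either. GTPBP3 likewise starts 126 bases from ANO8, which is read the other way, and BST2 and MVB12A, which are not members, lie head to head with 110 bases between them. RefSeq places BISPR, a long non-coding RNA gene, at 17405686 to 17415736, so its span begins inside that last gap. BISPR had no entry in the count table. The sequences between the genes of these 3 pairs are printed because the pairs lie head to head. Being higher together was not particular to these pairs. All 18 tested genes of the stretch without SIN3B were called higher in this contrast, where 6.67% of all tested genes were. The contrast chose the stretch, and a shared promoter was not tested. They come from RefSeq (GRCh38.p14), plus strand, 5′ to 3′, with the GC box GGGCGG or its reverse complement in capitals.
HAUS8 to MYO9B, chr19:17075534-17075776: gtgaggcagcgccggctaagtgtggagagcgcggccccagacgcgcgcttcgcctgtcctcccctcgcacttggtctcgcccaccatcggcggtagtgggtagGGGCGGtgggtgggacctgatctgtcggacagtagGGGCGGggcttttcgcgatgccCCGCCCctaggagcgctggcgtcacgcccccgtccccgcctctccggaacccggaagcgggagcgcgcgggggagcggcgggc
ANO8 to GTPBP3, chr19:17334856-17334981: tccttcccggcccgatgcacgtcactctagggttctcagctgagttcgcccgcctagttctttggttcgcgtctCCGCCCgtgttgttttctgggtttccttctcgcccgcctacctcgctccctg
BST2 to MVB12A, chr19:17405631-17405740: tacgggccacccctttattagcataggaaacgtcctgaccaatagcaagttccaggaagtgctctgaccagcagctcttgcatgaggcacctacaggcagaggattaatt
The first has 73.7% G and C and 3 GC boxes, the second 61.1% and 1, and the third 50% and 0. Over RefSeq's promoter windows of 300 bases, searched on both strands, 44.95% of 35116 held GGGCGG. There were 9 windows for 7 members, and 7 of the 9 held it. They belonged to 5 members: HAUS8, MYO9B, ABHD8, GTPBP3 and SLC27A1. The motif CCAAT was in 34.61% of all windows and in 5 of the 9 member windows, from 5 members. CCGGAAG was in 10.26% of all windows and in 3 of the 9, from 3 members: BABAM1, HAUS8 and MYO9B. HAUS8 and MYO9B start 243 bases apart, and the gap between them holds both CCGGAAG and GGGCGG. For these motifs 1 match can therefore be counted in the windows of both genes. Such a match is a description of letters and not of binding.

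BABAM1 and DDA1, the members of ubiquitin complexes, were higher by nearly the same factor against the second control set. Against the control set of the other experiment their log2 values were less alike, 1.015 and 0.66. BABAM1 had 144, 144, 161 and 155 CPM in the second knockout and 80.6, 85.8, 79.2 and 78.2 CPM in its control, a log2 fold change of 0.90 ± 0.05. DDA1 had 91.8, 94.6, 97.7 and 92.6 CPM against 49.8, 51.4, 49.2 and 50.7 CPM, a log2 fold change of 0.91 ± 0.05. In both genes the groups were far apart and the 4 libraries of a group close together. The annotated ends of DDA1 and ANO8, on opposite strands, overlap by 76 bases, and whether reads were counted by strand is not given in the sources used here.

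USE1, the SNARE protein, was the member with the fewest counts. It had 9.41, 8.77, 9.87 and 8.78 CPM in the second knockout, from 143 to 163 counts, and 4.77, 3.82, 5.0 and 4.37 CPM in its control, from 63 to 83 counts. Its log2 fold change of 1.03 ± 0.12 had the widest 95% interval of the 10 members, 0.79 to 1.27. SLC27A1, the fatty acid transporter at the far end, had 25.3, 28.3, 30.2 and 25.7 CPM against 12.8, 12.7, 11 and 10.2 CPM, and its log2 fold change of 1.23 ± 0.09 was the highest of the members. ABHD8 had 33.4, 39.2, 35.7 and 38.9 CPM against 22.3, 22.3, 20.1 and 19.9 CPM, a log2 fold change of 0.80 ± 0.07. The groups of these 3 genes did not overlap. ABHD8 lies on the minus strand almost wholly inside the annotated span of MRPL34 on the plus strand, with 10853 shared bases, so the values of both are uncertain where reads from one could be counted for the other.

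GTPBP3, the mitochondrial transfer RNA enzyme, had 95.8, 96.1, 113 and 97.8 CPM in the second knockout and 43.9, 42.1, 49.4 and 48.6 CPM in its control. Its log2 fold change was 1.13 ± 0.06. Library 3 of the second knockout stood above the other 3 for this gene, and it was the highest of its group for 7 of the 10 members. Library 3 was also the highest for 6 members in the SLC30A10 knockout and for 5 in the SLC30A10 control. In the second control set library 3 was the highest for 2 members and the lowest for 3. The median log2 ratio of the members to the mean of that set was 0.97 in library 3 of the second knockout. It was 0.84, 0.89 and 0.90 in libraries 1, 2 and 4 of that knockout, so the members were higher in each of the 4.

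Set against a 2-fold level, a log2 value of 1, the rises were not alike. SIN3B, at 0.13, lay far below it, and the other members lay at 0.80 to 1.23. The contrast chose the members, so these sizes are a description. The 95% intervals of MYO9B, USE1 and DDA1 held 1. Those of GTPBP3 (1.01 to 1.25) and SLC27A1 (1.04 to 1.41) lay above it. The intervals of 5 members lay below 1: SIN3B, HAUS8, NR2F6 (0.73 to 0.92), BABAM1 (0.80 to 0.996) and ABHD8 (0.65 to 0.95). All members but SIN3B had intervals above the log2 value of a 1.5-fold level, 0.58. Against the control set of the other experiment the same 9 members were called, with a median log2 fold change of 0.82 over the 10. There USE1 (0.74) and GTPBP3 (0.80) lay below 1 and BABAM1 (1.015) above it, each on the other side of 1 than against the second control set. DDA1 was at 0.66 and SLC27A1 at 1.67, on the same side as before. DNA copies were not measured in these data, and whether the segment has an added copy in the second knockout was not tested.

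The other genes between SIN3B and SLC27A1 were higher as well. Of 12 such entries, 9 passed the filter. All 9 were called higher in the second knockout, where 6.67% of all tested genes were, with a median log2 fold change of 0.96. The stretch was picked by this contrast, so these values too are a description and test nothing. They were CPAMD8, OCEL1, USHBP1, ANKLE1, MRPL34, ANO8, BST2, MVB12A and TMEM221, and the intervals of 7 of the 9 held 1. MRPL34, a protein of the mitochondrial ribosome, had the lowest value (0.75 ± 0.06), and USHBP1, with 2 to 10 counts per control library, had the highest (1.46 ± 0.39). BST2, the membrane protein tetherin that retains budding viruses, had the highest CPM of the stretch, 253 ± 12.4 against 137 ± 3.00, a log2 fold change of 0.88 ± 0.04. The 3 entries under the filter were F2RL3 with 0 counts in every library, NXNL1 with 0 to 2 counts and PLVAP with 0 to 9 counts.

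The step at either edge fell between neighbouring tested genes. On the near side, SIN3B at 0.13 was followed after 12601 bases by CPAMD8, with 3.05, 3.80, 4.30 and 3.75 CPM in the second knockout, 2.02, 2.55, 2.53 and 1.70 CPM in its control and a log2 fold change of 0.76 ± 0.16. On the far side, SLC27A1 at 1.23 was followed after 5480 bases by PGLS, a pentose phosphate pathway enzyme, at -0.06 ± 0.05 (43.5 against 45.2 CPM, adjusted p 0.561 by edgeR). From CPAMD8 to SLC27A1 the span was 613 kb. The near edge rests on CPAMD8, which was also higher in the SLC30A10 knockout, at 0.70 ± 0.17. The next tested gene, HAUS8, was at 0.81 in the second knockout and was not called in the SLC30A10 knockout. Whether the near edge lies before or after CPAMD8 was not tested. Of the 10 tested genes next to the stretch on each side, 20 in all, 2 were called higher and 1 lower in this contrast. Of all tested genes, 6.67% were called higher and 7.03% lower. The median log2 fold change of the 20 flanking genes was -0.0024. The calls were KLF2, a transcription factor, at 0.75 ± 0.14, SMIM7 at 0.15 ± 0.05 and SLC5A5 at -0.98 ± 0.32, the last from under 1 CPM.

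**Figure D2:**
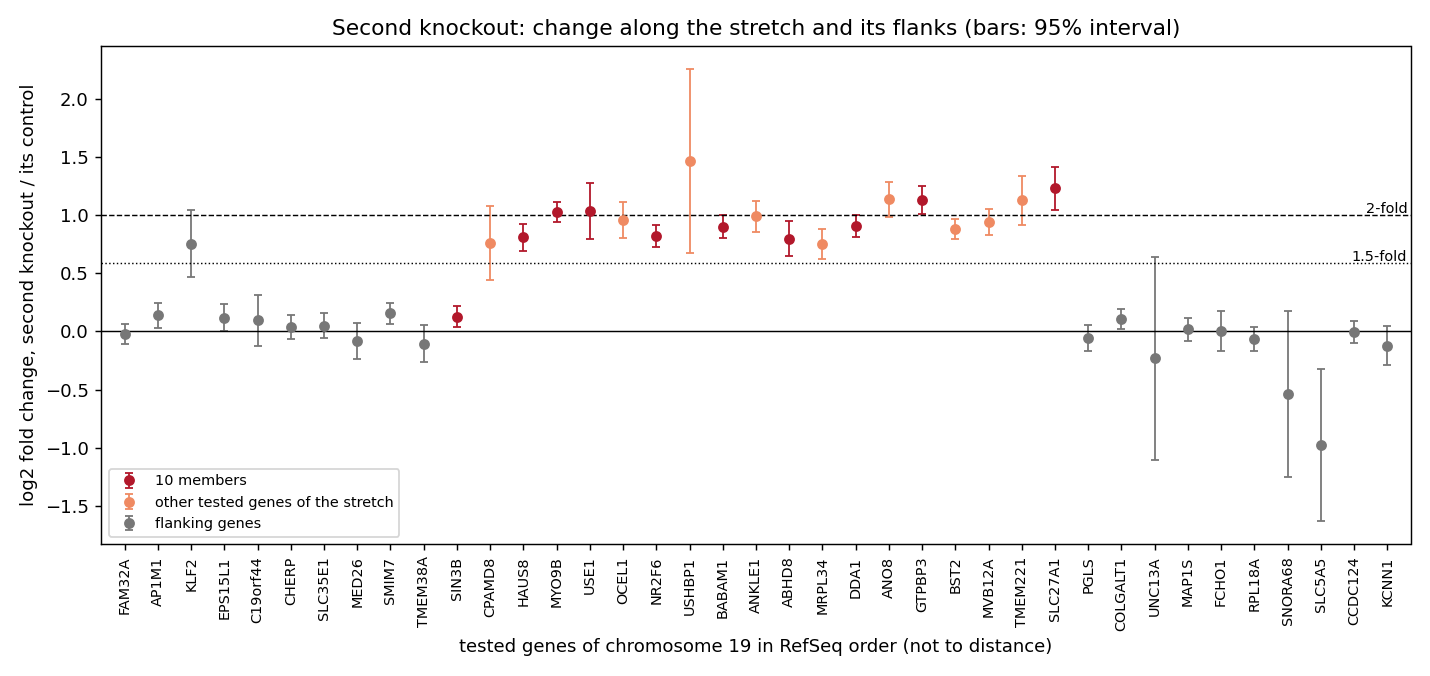
Log2 fold change of the second knockout against its control (vertical axis, points with 95% intervals) for the 10 members, the 9 other tested genes of the stretch and 10 tested genes on each side, in chromosome order (horizontal axis, not to distance). The points step up between SIN3B (0.13) and CPAMD8 (0.76) and down between SLC27A1 (1.23) and PGLS (-0.06), with dashed and dotted lines at 2-fold and 1.5-fold.

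The SLC30A10 knockout shares no library with the contrast that chose the members, so it was tested. Of the 10 members, 1 was higher and 1 was lower by edgeR at an adjusted p under 0.05. Of all tested genes, 21.2% were called higher and 20.2% lower. Over the 19 tested genes of the stretch, 6 were higher and 1 lower, which is 36.8% where 41.4% of all tested genes were called. Whether the members' share differed from that of all tested genes was not tested. DDA1 had 50.3, 48.2, 47.3 and 51.2 CPM in this knockout and 55.2, 61.0, 63.4 and 58.1 CPM in its control, and fell by 0.27 ± 0.05 on the log2 scale (edgeR adjusted p 5.14e-05). SLC27A1 had 11.6, 11.6, 13.1 and 11.7 CPM against 7.74, 8.98, 7.26 and 10.4 CPM, and rose by 0.49 ± 0.11 (edgeR adjusted p 0.000525). In neither gene did the groups overlap. Both calls were lost against the second control set, with DDA1 at -0.03 and SLC27A1 at 0.04, and there GTPBP3 alone was called, at 0.37.

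The other 8 members had log2 values between -0.07 (HAUS8) and 0.18 (ABHD8) in the SLC30A10 knockout and did not pass. MYO9B, at 94.3, 90.5, 96.6 and 92.7 CPM against 85.0, 89.3, 87.3 and 86.9 CPM, had no overlap between groups but a log2 value of 0.10 ± 0.04 and an adjusted p of 0.0545. With it, 3 of the 10 members had libraries that did not overlap, where 38.3% of all tested genes did so in either direction. Without library 2 of the SLC30A10 knockout, MYO9B (0.12) and ABHD8 (0.24) were also called, for 4 members in all, and ABHD8 (0.22) was called without library 3 of the SLC30A10 control. The median over the 10 was 0.04, against -0.0048 over all tested genes, and the upper ends of the 95% intervals ranged up to 0.70 for SLC27A1. No member's interval reached 1 in this knockout. SIN3B had a log2 value of -0.06 ± 0.04, USE1 -0.04 ± 0.12, NR2F6 0.07 ± 0.05, BABAM1 0.04 ± 0.05 and GTPBP3 0.04 ± 0.06.

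Of the 9 other tested genes of the stretch, 5 were higher in the SLC30A10 knockout, where 21.2% of all tested genes were called higher: CPAMD8 at 0.70 ± 0.17, OCEL1 at 0.27 ± 0.08, ANKLE1 at 0.26 ± 0.07, BST2 at 0.38 ± 0.04 and TMEM221 at 0.43 ± 0.12. CPAMD8, the first raised gene of the stretch, had 2.92, 2.92, 3.49 and 3.05 CPM there and 2.19, 1.70, 2.07 and 1.65 CPM in its control. Its value did not differ detectably between the knockouts (difference -0.06 ± 0.23, 95% interval -0.53 to 0.42, edgeR adjusted p 0.876). KLF2, outside the stretch, was also higher in the SLC30A10 knockout, at 0.63 ± 0.15.

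**Figure D3:**
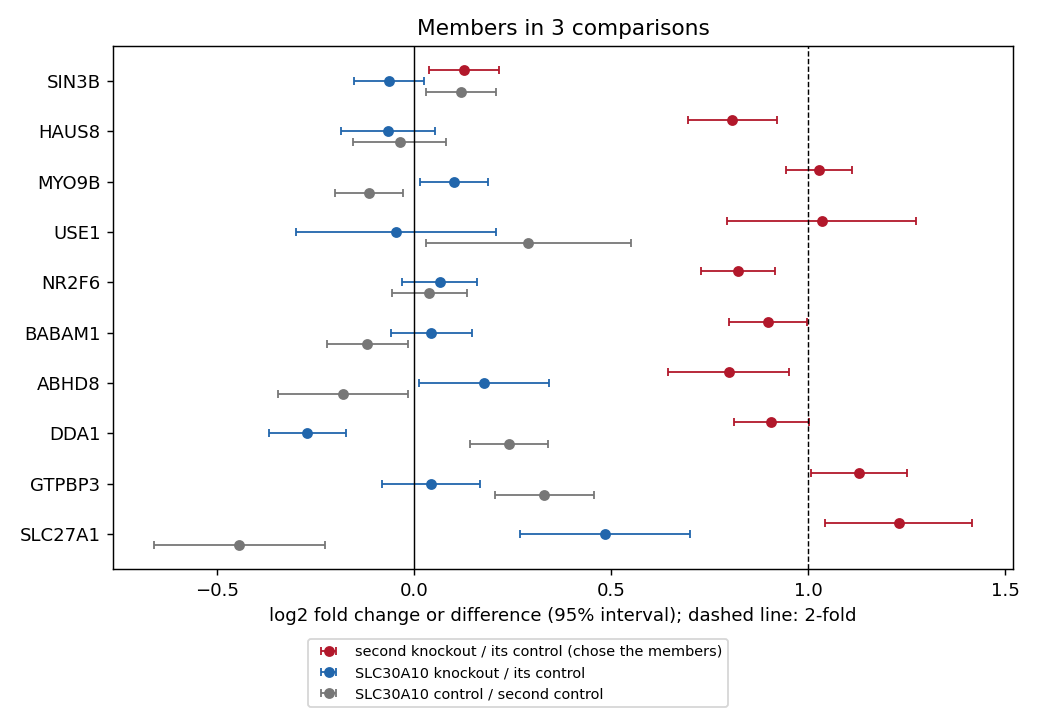
Log2 fold change or difference (horizontal axis, points with 95% intervals) of each of the 10 members (vertical axis) in the second knockout, in the SLC30A10 knockout and between the control sets, with a dashed line at 2-fold. Except for SIN3B the values of the second knockout lie at 0.80 to 1.23, and those of the other comparisons lie between -0.44 and 0.49.

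The control sets carried the same cell line identifier, and their difference shows how far the members moved without a deletion. This comparison shares the second control set with the contrast that chose the members. Of the 10 members, 3 were higher and 2 lower in the SLC30A10 control than in the second control set by edgeR, where 18.5% of all tested genes were called higher and 20.8% lower. GTPBP3 was higher by 0.33 ± 0.06 on the log2 scale (58.4, 55.3, 58.2 and 59.6 CPM against 43.9, 42.1, 49.4 and 48.6 CPM, edgeR adjusted p 0.000141), DDA1 by 0.24 ± 0.05 (edgeR adjusted p 0.00027) and SIN3B by 0.12 ± 0.04 (edgeR adjusted p 0.0299). The groups did not overlap for these 3 genes. Such a gap was not particular to the members: of the 82 tested partner genes described below, 17 were higher and 21 lower without overlap. How many of all tested genes did so was not counted for this comparison. SLC27A1 had a value of -0.44 ± 0.11 (edgeR adjusted p 0.00161) and MYO9B of -0.11 ± 0.04 (edgeR adjusted p 0.0329), both with overlapping libraries. MYO9B lost its call in 13 of 18 alternatives and kept it, of the 8 fits without 1 library, only without library 1 of the second control set. SIN3B lost its call in 5, among them without library 1 or 2 of the SLC30A10 control, which left 3 calls, and without library 1 of the second control set. BABAM1 (-0.14) was called without library 3 of the SLC30A10 control, and USE1 was called without library 4 of the SLC30A10 control (0.37) or library 3 of the second control set (0.35). The median over the 10 members was 0.0013, against -0.0061 over all tested genes.

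Against either control set, the second knockout stood above for 9 members, and the largest difference between controls, that of SLC27A1, was less than its rise in the second knockout. The difference of both knockout effects was lower in the SLC30A10 knockout for 10 of the 10 members by edgeR, where 14.6% of all tested genes were, and it ranged from -0.19 ± 0.06 (SIN3B) to -1.18 ± 0.07 (DDA1), with a median of -0.86. It contains the contrast that chose the members and is given as a description. For SIN3B the difference came from small moves in opposite directions, 0.13 in the second knockout and -0.06 in the other, and it was not called with no filter on low counts (adjusted p 0.0812).

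Genes encoded elsewhere whose products work with the members did not show a like shift. From 8 lists of complex subunits, pathway partners and family members, 82 of 83 genes were tested, and 8 were called in the second knockout, 5 higher and 3 lower, which is 9.76% where 13.7% of all tested genes were called. Their median log2 fold change was -0.04. In the SLC30A10 knockout 33 of the 82 were called, 17 higher and 16 lower, where 41.4% of all tested genes were. Against the control set of the other experiment the second knockout had 47 partner calls in place of 8, which is 57.3% where 47.8% of all tested genes were called.

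The partner calls of the second knockout lay in 5 lists. Among 20 tested subunits of SIN3 and histone deacetylase complexes, KDM5A, a histone H3 lysine 4 demethylase, fell by 0.16 ± 0.04 on the log2 scale (78.0 against 87.0 CPM, edgeR adjusted p 0.0141). Among 9 genes of the cullin 4 ligases, the scaffold CUL4B fell by 0.15 ± 0.04 (143 against 158 CPM, edgeR adjusted p 0.00634). Of 8 genes of the deubiquitinase complexes of BABAM1, SHMT2, a mitochondrial serine enzyme that also binds one of them, rose by 0.27 ± 0.06 (370 ± 49.2 against 307 ± 16 CPM, edgeR adjusted p 0.00192). The COUP-TF relative NR2F2 rose by 0.22 ± 0.05 (48.0 against 41.2 CPM, edgeR adjusted p 0.00335), and it fell by 0.70 ± 0.05 in the SLC30A10 knockout.

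The list around SLC27A1, 11 tested genes of fatty acid uptake and activation, had 3 higher and 1 lower, where 13.7% of all tested genes were called in either direction. The fatty acid receptor CD36 was at 2.17 ± 1.59 against 0.714 ± 0.280 CPM (log2 1.59 ± 0.39, edgeR adjusted p 0.00566), the acyl-CoA synthetase ACSL1 at 97.2 against 87.8 CPM (0.15 ± 0.04), and its relative ACSL3 at 65.3 against 75.7 CPM (-0.21 ± 0.05). SLC27A5, the bile acid and fatty acid ligase, was the other call (0.38 ± 0.13, edgeR adjusted p 0.0497) and was named after its value was seen. In the SLC30A10 knockout 9 of these 11 were called, 7 higher and 2 lower, where 41.4% of all tested genes were called, among them SLC27A5 at 0.58 ± 0.13 and ACSL3 at 0.31 ± 0.05.

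The remaining 3 lists, with 30 tested genes, had 0 calls by edgeR in the second knockout, 2 genes at an unadjusted p under 0.05 and 0 calls by DESeq2, and their log2 values lay between -0.13 and 0.13. They held the other augmin subunits, the SNARE and tethering proteins that work with USE1 and the mitochondrial transfer RNA modification enzymes. The augmin subunits HAUS7 and HAUS2 were at -0.11 ± 0.06 and -0.08 ± 0.06, the tether ZW10 at -0.13 ± 0.05 and the transfer RNA enzyme TRIT1 at 0.13 ± 0.05.

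**Figure D4:**
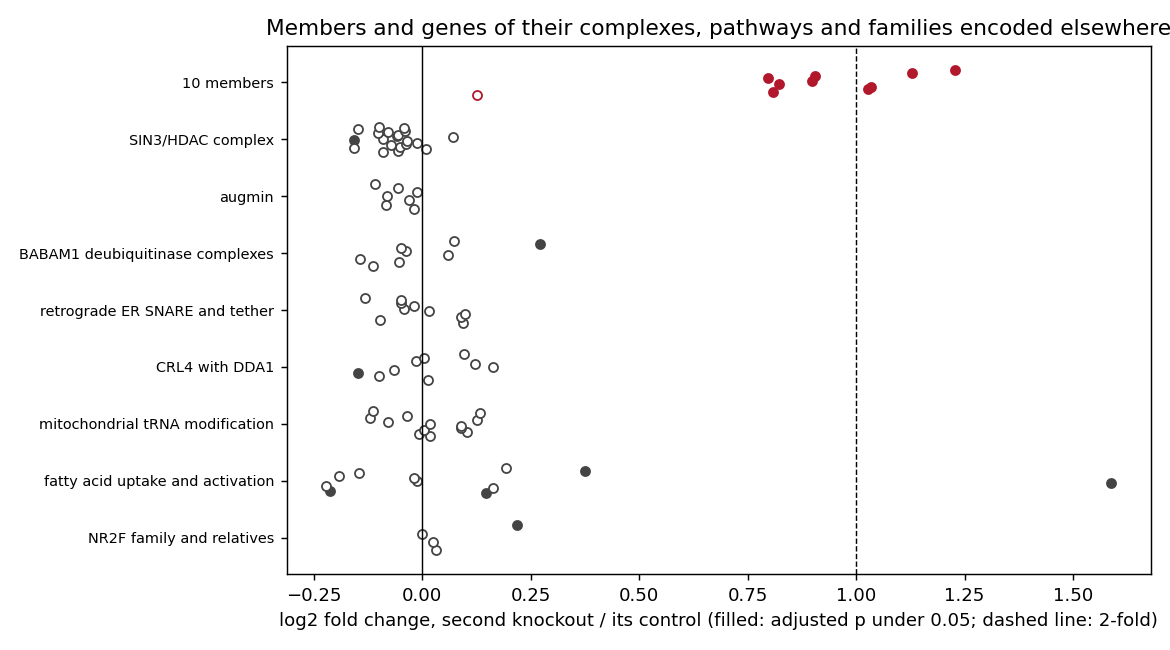
Log2 fold change of the second knockout against its control (horizontal axis) for the 10 members and the 82 tested genes of the 8 partner lists (vertical axis, 1 point per gene, filled where the adjusted p is under 0.05), with a dashed line at 2-fold. The members other than SIN3B lie at 0.80 to 1.23, and of the partners only CD36, at 1.59, lies above 0.38.

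Across the 16 libraries, the members followed their own mean to different degrees, a description that rests on the 4 libraries of the second knockout standing apart. Pearson's r with the mean of the members' centred log2 CPM was 0.99 for NR2F6 and for MYO9B, 0.92 for USE1 and 0.48 for SIN3B. Outside the stretch and its flanks, the 5 tested genes with the highest r were LINC00265 on chromosome 7 (0.99), ATP5C1 (0.99) and KIN (0.99) on chromosome 10, PTGIS on chromosome 20 (0.98) and TRIM32 on chromosome 9 (0.98). TRIM32, a ubiquitin ligase, had 66.7 ± 2.74 CPM in the second knockout and 33.3 ± 0.627 in its control, a log2 fold change of 1.00 ± 0.05, and 30.9 ± 1.85 and 33.2 ± 0.881 CPM in the SLC30A10 knockout and its control. ATP5C1, a subunit of the mitochondrial ATP synthase, had 655 ± 39.4 against 240.0 ± 12.4 CPM in the second knockout and its control. Its log2 fold change was 1.45. LINC00265 had 1.62, KIN 1.57 and PTGIS 5.73, the last from 0.137 CPM in the control. A like r thus did not go with a rise of like size. These values share libraries and scaling with those of the members.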

How the data were processed

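RNA-seq of 16 HAP1 libraries was deposited as 1 table of gene counts and 1 normalized table. Per the submitters' processing notes, HISAT2, featureCounts and DESeq2 were used with the builds hg38 and GRCh38; their roles and versions, and the use of strand, are not given in the sources used here. The raw counts deposited by the authors were used for all tests. The deposited normalized signal equalled the counts divided by 1 constant per library (largest deviation 5.21e-06 counts over 33093 entries matched by name of 33121, constants 0.986 to 1.02) and served as an alternative scaling only.

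Counts were fitted with edgeR 4.0.16 in R 4.3.3 (quasi-likelihood, TMM, low-count filter with a minimum of 10 counts and a total of 15, a mean per group over all 16 libraries, common biological coefficient of variation 0.0497). P-values were Benjamini-Hochberg adjusted over all 15569 tested genes, with a threshold of 0.05. CPM used TMM-scaled sizes, and CPM per kb the GENCODE release 29 union exon length. Positions and sequences came from RefSeq GRCh38.p14. Alternatives were DESeq2 1.42.0, other scalings, filters, thresholds and control sets, a replicate block and leaving out each library. The fit was tested on simulated counts. Replicates differed beyond sampling noise (chi-square per degree of freedom 1.62 to 6.65), so none was counted as a duplicate.

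The members, partner lists and rules were chosen with earlier results of these data known. The named genes were the members, the genes of the stretch, 10 tested genes per side, up to 3 partners per list with the smallest adjusted p in the second knockout, and the 5 genes most like the members' mean. The second deleted gene, 1 blood cell marker and 1 partner list are not reported here.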

Additional observations from a re-analysis of the deposited data

Results flagged for a closer look

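Within groups, 4 of 40 sets of 4 library values had a lowest or highest library far from the other 3 (a gap above Dixon's 95% limit), where chance gives about 1 in 20, or 2 of 40. GTPBP3 stood at 113 CPM in library 3 of the second knockout, and the other libraries of that group lay at 95.8 to 97.8 CPM. NR2F6 stood at 98.7 CPM in library 3 of the SLC30A10 control, above 92.7 to 93.1 CPM. SLC27A1 stood at 13.1 CPM in library 3 of the SLC30A10 knockout, above 11.6 to 11.7 CPM. BABAM1 stood at 74.4 CPM in library 4 of the SLC30A10 knockout, below 77.6 to 78.0 CPM.

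The effect of the SLC30A10 knockout was lower than that of the second knockout for each of the 10 members. This is by the edgeR test of the difference itself (adjusted p under 0.05), where 14.6% of all tested genes were called lower. The contrast includes the one that chose the members, so the count is a description. The differences, SLC30A10 effect minus second effect in log2 units, were -0.19 for SIN3B, -0.87 for HAUS8, -0.92 for MYO9B, -1.08 for USE1, -0.76 for NR2F6, -0.85 for BABAM1, -0.62 for ABHD8, -1.18 for DDA1, -1.09 for GTPBP3 and -0.74 for SLC27A1.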

How the results depend on the processing

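The 9 member calls of the second knockout held under all alternatives run, with SIN3B added in some (9 to 10 calls with 1 library left out, median log2 0.88 to 0.92, summed CPM ratio 1.80 to 1.85). Against the control set of the other experiment the median was 0.82. In the SLC30A10 knockout 2 to 4 members were called with 1 library left out and 1 against the other control set. Between the control sets 3 members were called with no filter on low counts, 3 at an adjusted p under 0.01 and 3 to 5 with 1 library left out, and the median there, near 0, turned to -0.0027 with no filter and ranged from -0.022 to 0.023 with 1 library left out, below 0 without library 3 of either set. Partner calls in the second knockout were 5 at an adjusted p under 0.01, 31 against pooled controls and 47 against the other set, and 6 to 10 with 1 library left out. In the SLC30A10 knockout they were 25 to 33 with 1 library left out. Over all tested genes, calls in the second knockout went from 2132 to 1229, 5341 and 7445 under those 3 settings. The cause was not tested.

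Replicate numbers did not pair the samples (correlation of same-numbered deviations -0.117 to 0.148). With the number as a block, 9 members were called in the second knockout, 3 in the SLC30A10 knockout and 4 between the control sets, and calls over all tested genes were 2160, 6497 and 6096 in place of 2132, 6450 and 6111.

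The deposited scaling and a scaling without the stretch were chosen after seeing the data. Among the members, USE1 had the fewest counts and the widest interval in the second knockout.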
